A study of Mus musculus with 8 samples.

Results

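Blood vessels and lymphatic vessels are lined by endothelial cells, and 35 genes that mark these cells were followed in mouse white adipose tissue after an injection of endostatin. The genes were a fixed list of pan-endothelial, capillary, arterial and lymphatic markers, taken by symbol, and they make up 35 of the 37046 gene features in the deposited quantifications. All 35 had counts high enough to be tested. Libraries came from female wild-type C57BL/6J mice. The 4 endostatin libraries are from animals given endostatin at 50 mg/kg through the tail vein, and the 4 control libraries are from animals given the phosphate-buffered saline vehicle. Tissue was taken 2 h after injection, food was withheld in between, and no label gives the age of the animals. The tissue is labelled epididymal, a name for the depot of male mice, and that label was not checked further.

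Endostatin is a fragment of a basement membrane collagen that is known for blocking endothelial growth and migration. In white fat, a dense capillary bed delivers lipoproteins and fatty acids to adipocytes, and its endothelial cells carry a shared programme of ETS and SOX transcription factors, junction proteins and surface receptors. Lymphatic endothelial cells are set apart by the transcription factor Prox1 and drain fluid and immune cells from the depot.

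RNA was depleted of ribosomal RNA and sequenced with strand-specific libraries. Estimated counts totalled 17197721 to 23786594 per endostatin library and 15826783 to 19221886 per control library, and a count of 0 allows up to 0.126 to 0.19 CPM (counts scaled to library size), which covers counting error only. Batch 2 and batch 1, as labelled, each hold 2 endostatin and 2 control libraries, and what the batches are is not said. The design description counts 4 female mice, and whether this is a total or a number per group is not given. No label names the animal behind a library. The 8 libraries may therefore stand for fewer than 8 animals, n counts libraries throughout, and a p-value here reflects only the spread between the samples, part of which may be technical. The description of endostatin 4 repeats a read file stub given for endostatin 3, but their counts differed (Pearson r = 0.865 across genes) and the labels were kept. Some libraries stand apart in markers of neighbouring organs. The summed TPM (a level per transcript length on a common total) of 8 oviduct and uterus markers was 29.4, 7.05, 8.36 and 384 in endostatin 1 to 4, and 6.49, 4.69, 521 and 11.7 in control 1 to 4. Endostatin 4 and control 3 were thus the high libraries in the sum, and 5 of these 8 markers were above 0 in every library. Most of the sum in endostatin 4 was Ltf, at 298 TPM, with Epcam at 32.4 and Cdh1 at 23.0 TPM. Other markers were not high there: Ovgp1 (0.719 TPM) and Foxj1 (0 TPM) were at their lowest, and Pgr had 5.08 TPM against 11.7 TPM in endostatin 1. The epithelial marker Pax8 was at 0 in endostatin 2, endostatin 3, control 1 and control 2. Skeletal muscle markers, 10 genes of which 6 were above 0 in every library, summed to 48.9 to 108 TPM in endostatin libraries and to 234, 35.2, 47.7 and 461 TPM in control 1 to 4.

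The defining pan-endothelial genes were present in every library. Pecam1, an adhesion molecule at endothelial contacts, had 82.8, 89.6, 80.1 and 98.9 TPM in endostatin 1 to 4, and 69.1, 87.8, 92.8 and 73.7 TPM in control 1 to 4. Cdh5, the cadherin of endothelial adherens junctions, had 103, 115, 89.7 and 83.0 TPM in the endostatin libraries, against 86.4, 96.4, 96.1 and 93.6 TPM in the control libraries. Both genes overlapped between the groups. Summed over the 35 genes, the level was 2088 ± 131 TPM in endostatin libraries and 2021 ± 157 TPM in control libraries (SD, n = 4 each). The genes do not weigh equally in this sum, and Rgcc alone made up 24.1% of it. In bulk tissue, fewer cells of a type and less RNA per cell cannot be told apart.

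Over all 8 libraries, 3 genes averaged at least 100 TPM, 26 lay between 10 and 100 TPM and 6 were under 10 TPM. Rgcc, a cell cycle regulator abundant in capillary endothelium, was the highest at 496 ± 94.9 TPM (SD, n = 8), followed by Aqp1, a water channel also found in red cells, at 258 ± 33.7 TPM, and Egfl7, a secreted endothelial matrix protein, at 136 ± 20.1 TPM. These 3 genes were separated from one another, and from the next gene Cdh5, by more than 1 SD. At the low end stood Mmrn1 at 4.80 ± 4.999 TPM, Tal1 at 2.31 ± 0.498 TPM and Prox1 at 1.09 ± 1.004 TPM. Of the 34 gaps between neighbours in the order of levels, 8 were larger than the SD of either neighbour. The broad middle from Ptprb at 62.9 TPM to Mmrn2 at 25.7 TPM held no such gap.

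**Figure D1:**
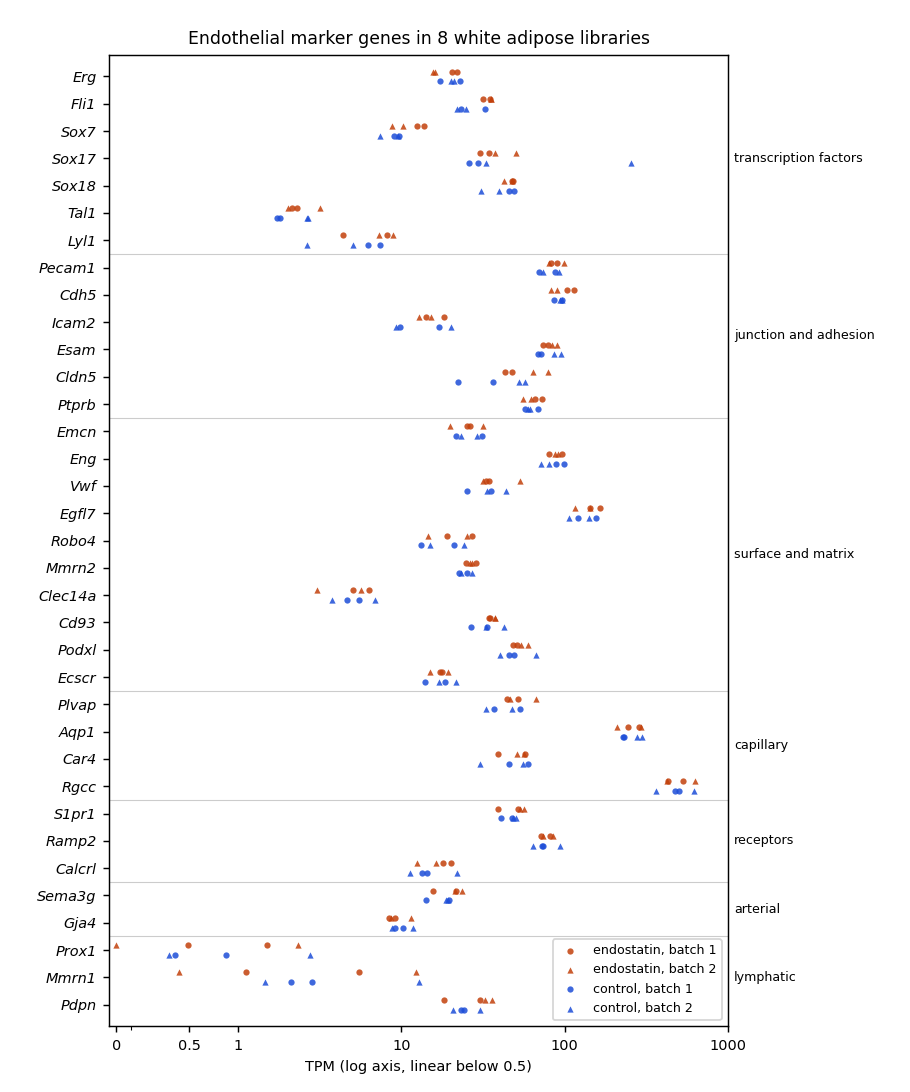
Level of each of the 35 endothelial genes in TPM (log axis, linear below 0.5), 1 point per library, with endostatin libraries in orange above control libraries in blue and batches shown by point shape. The 2 groups overlap for all 35 genes, control 3 stands out for Sox17 at 253 TPM, and Prox1 and Mmrn1 are the most scattered.

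No endothelial gene passed the test for a change with endostatin at this depth and sample number. In edgeR's quasi-likelihood test with a batch term, 0 of 16154 genes tested (0%) and 0 of the 35 endothelial genes passed an adjusted p of 0.05. The lowest adjusted p over all genes was 0.8057. The log2 fold change, endostatin minus control, was positive in 25 and negative in 10 endothelial genes, with a median of 0.07, beside a median of -0.01 and 47.0% positive over all genes tested. At an unadjusted p under 0.05, 2 endothelial genes were higher and 0 were lower, while over all genes 2.45% were higher and 0.929% were lower. No endothelial gene had its 4 endostatin libraries all above or all below the 4 control libraries in CPM, an arrangement that 0.935% (above) and 0.693% (below) of all genes showed. DESeq2 called 5 genes higher and 2 lower (0.0433% of all genes), and none of them was among the 35.

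Over these libraries, the data bound the size of the differences for most of the list. The intervals are per gene and not adjusted, and like the p-values they reflect only the spread between the samples. The 95% interval of the log2 fold change lay within 1.5-fold in either direction (0.59 on the log2 scale) for 24 of the 35 genes, compared with 53.4% of all genes. It lay within 2-fold for 31 of 35, compared with 74.2% of all genes. The 4 genes with wider intervals were Sox17, Lyl1, Prox1 and Mmrn1. The median half-width was 0.33 for the endothelial genes and 0.41 over all genes.

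**Figure D2:**
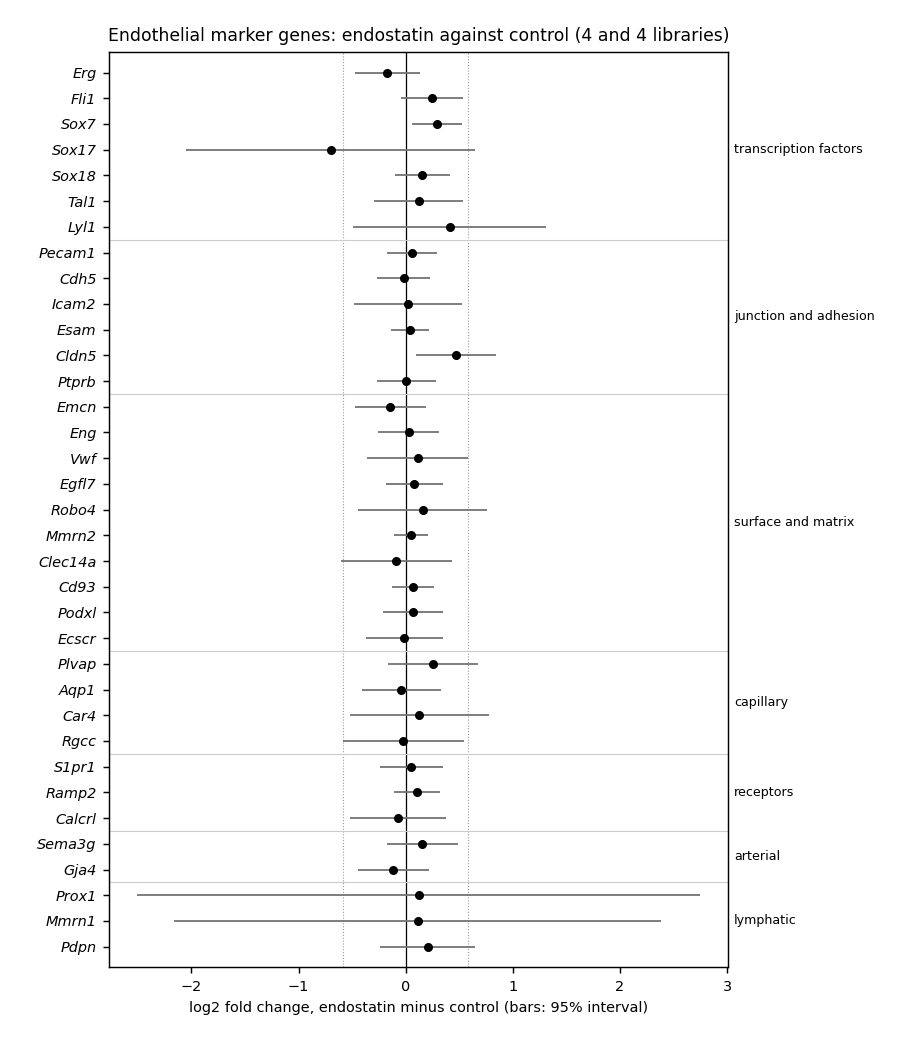
Log2 fold change, endostatin minus control, of each endothelial gene (points) with its 95% interval (bars), grouped by role, from edgeR's fit with a batch term. Dotted lines mark 1.5-fold in either direction; 33 of the 35 intervals include 0, and those of Sox17, Lyl1, Prox1 and Mmrn1 are the widest.

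Among the 7 transcription factors, 5 had positive and 2 had negative log2 fold changes, with a median of 0.16. Sox7, a SOX factor of vascular development, had 12.4, 13.8, 8.73 and 10.3 TPM in endostatin 1 to 4, and 8.99, 9.71, 9.57 and 7.40 TPM in control 1 to 4. In TPM only endostatin 3 lay within the range of the control libraries. In CPM endostatin 4 did so too, at 17.9 against 14.3 to 18.7 CPM in the control libraries for Sox7. Its log2 fold change was 0.29 ± 0.10 (SE), with an unadjusted p of 0.021 and an adjusted p of 0.9996 (edgeR), and within the batches it was 0.19 in batch 2 and 0.40 in batch 1. Fli1, an ETS factor, had 31.53, 34.96, 35.12 and 35.22 TPM in the endostatin libraries, against 23.2, 32.3, 21.8 and 24.9 TPM in the control libraries. The groups overlapped in control 2 alone on the TPM scale, and the difference was 0.24 ± 0.12 with an adjusted p of 0.9996. Sox18, a SOX factor shared by blood and lymphatic endothelium, was at 0.16 ± 0.11, with 42.7 to 48.2 TPM in endostatin libraries and 30.7 to 49.1 TPM in control libraries. Tal1, a basic helix-loop-helix factor, was at 0.12 ± 0.18 on the log2 scale. Its relative Lyl1 was at 0.41 ± 0.39, with 4.38, 8.18, 7.26 and 8.87 TPM in endostatin 1 to 4 and 6.25, 7.41, 2.65 and 5.06 TPM in control 1 to 4. Lyl1 was lowest in control 3, and without control 3 and endostatin 4 its log2 fold change was -0.0009.

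Sox17, a SOX factor that acts in arterial endothelium and is also made by epithelium of the female reproductive tract, was decided by a single library. It had 34.3, 30.1, 37.5 and 50.0 TPM in endostatin 1 to 4, and 25.9, 29.5, 253 and 32.8 TPM in control 1 to 4. Control 3 was the high library, and the other 7 libraries lay between 25.9 and 50.0 TPM. With all libraries the log2 fold change was -0.70 ± 0.58. Without control 3 it was 0.20, and without control 3 and endostatin 4 it was 0.13. Control 3 also held the highest levels of Gata2, a GATA factor of endothelium and other tissues, at 149 TPM against at most 26.5 TPM elsewhere, and of Mecom, at 78.0 TPM against at most 19.9 TPM elsewhere. The part of the reproductive tract markers, whose sum was highest in the same library, was not tested.

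Erg, the ETS factor that keeps endothelial identity, had 20.3, 21.9, 15.6 and 16.0 TPM in endostatin 1 to 4, and 17.3, 22.8, 20.02 and 20.9 TPM in control 1 to 4. Its log2 fold change was -0.17 ± 0.13 and its adjusted p 0.9996. The RefSeq promoter table (GRCm38.p6) lists 3 start sites for Erg, and transcripts that start within 250 bases of the site shown here carried 81.0% of the gene's TPM, while the other 2 sites carried 0.0% and 3.9%. The window on the minus strand, chr16:95459299-95459598, runs from 250 bases before to 50 bases after that start, and it is shown because most of the TPM of Erg came from transcripts that start there. Capitals mark AGGAA or its reverse complement TTCCT, the core bound by ETS factors, which this window holds once.
Erg: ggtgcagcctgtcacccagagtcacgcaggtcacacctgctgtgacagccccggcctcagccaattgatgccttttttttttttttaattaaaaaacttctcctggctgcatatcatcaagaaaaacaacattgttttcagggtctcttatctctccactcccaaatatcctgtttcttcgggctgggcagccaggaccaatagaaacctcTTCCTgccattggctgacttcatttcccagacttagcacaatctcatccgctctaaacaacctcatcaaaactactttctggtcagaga
Of the 35 genes, 18 matched the promoter table with 24 windows, and 19 of these 24 held AGGAA on either strand, compared with 66.7% of all 32851 windows of the same length. For the other cores searched on both strands, ACAAT (SOX factors) was in 9 of 24 windows and 31.0% of all, CANNTG (helix-loop-helix factors) in 15 of 24 and 72.3% of all, and GATAA (GATA factors) in 5 of 24 and 25.4% of all. A match is a description of letters and not a binding site.

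The 6 junction and adhesion genes were close to even between the groups except for Cldn5, the claudin of endothelial tight junctions. Cldn5 had 43.2, 47.5, 64.2 and 78.8 TPM in endostatin 1 to 4, and 22.4, 36.2, 52.7 and 56.9 TPM in control 1 to 4. The groups overlapped, while within batch 2 and within batch 1 both endostatin libraries were above both control libraries. The share of all genes arranged in this way within the batches was not counted. The log2 fold change of Cldn5 was 0.47 ± 0.16, with an unadjusted p of 0.021 and an adjusted p of 0.9996 (edgeR). It was 0.39 ± 0.24 in batch 2 and 0.55 ± 0.24 in batch 1. The value stayed between 0.34 and 0.58 over the alternatives, with a lowest adjusted p of 0.58. Pecam1 was at 0.06 ± 0.10, Cdh5 at -0.02 ± 0.11, Esam, an adhesion molecule of endothelial cells and platelets, at 0.04 ± 0.08, and Ptprb, the phosphatase that acts on the Tie2 receptor and on cadherin contacts, at 0.01 ± 0.12. Icam2, a ligand of leukocyte integrins, was at 0.03 ± 0.22. The 95% intervals of Pecam1, Cdh5, Esam and Ptprb all lay between -0.27 and 0.29 on the log2 scale.

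The 10 surface and matrix genes had a median log2 fold change of 0.06, from -0.15 for Emcn, a sialomucin of capillary and venous endothelium, to 0.16 for Robo4, a guidance receptor of endothelial cells. Mmrn2, an endothelial matrix protein that binds Cd93 and Clec14a, was the most even of the 35. It had 56.9, 56.9, 57.9 and 57.9 CPM in endostatin 1 to 4, and 55.6, 59.4, 53.0 and 54.8 CPM in control 1 to 4. Its SD of log2 CPM over the 8 libraries was 0.053, and only 0.322% of the genes tested had a smaller one. Its binding partners differed in evenness: Cd93 had an SD of 0.106 and Clec14a one of 0.354. Cd93, a C-type lectin receptor, averaged 36.1 TPM in endostatin libraries and 33.8 TPM in control libraries, and Clec14a, its relative, averaged 5.02 TPM in endostatin libraries and 5.19 TPM in control libraries. Eng, a co-receptor for transforming growth factor beta, was at 0.03 ± 0.12, Podxl, a sialomucin of vascular and mesothelial surfaces, at 0.07 ± 0.12, and Ecscr, a small surface protein of endothelial cells, at -0.01 ± 0.15. Vwf, the clotting factor stored in endothelial granules, had 34.5, 32.7, 31.5 and 53.3 TPM in endostatin 1 to 4, and 25.1, 35.1, 43.8 and 33.4 TPM in control 1 to 4. Its highest libraries in TPM were endostatin 4 and control 3. In CPM they were endostatin 4 at 191.5 and control 2 at 164.7 CPM, with control 3 at 128.9 CPM. The log2 fold change of Vwf was 0.11 ± 0.20.

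Egfl7, whose gene also hosts the endothelial microRNA miR-126, was read mostly from transcripts annotated as retained introns. These made up 63.1% of its TPM on average, from 53.42% to 67.95% over the libraries, with 65.4% ± 1.60 in endostatin libraries and 60.8% ± 6.29 in control libraries (SD, n = 4 each). The protein-coding transcripts averaged 38.0 TPM, against 136 TPM for all transcripts of the gene. With all transcripts summed, its log2 fold change was 0.08 ± 0.11, and with protein-coding transcripts alone it was -0.15. Ramp2 had 29.2% of its TPM in retained-intron transcripts, Sox17 16.0%, Esam 13.9% and Vwf 13.7%, and these 5 genes were the ones over 10%. Calcrl had 46.9% of its TPM in 1 processed transcript of 500 bases and 53.1% in its protein-coding transcript. Levels summed over all transcripts are therefore not levels of coding mRNA for Egfl7, Ramp2 and Calcrl.

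The 4 capillary genes had a median log2 fold change of 0.05. Plvap, the protein of the diaphragms that close capillary fenestrae, had 44.1, 51.6, 45.9 and 66.6 TPM in endostatin 1 to 4, and 36.8, 53.5, 47.4 and 33.1 TPM in control 1 to 4. Its log2 fold change was 0.26 ± 0.18, and was 0.52 in batch 2 and -0.003 in batch 1, with an interaction p of 0.16 unadjusted (edgeR). Car4, a carbonic anhydrase on the capillary surface, was at 0.12 ± 0.28 and lowest in control 3 at 30.3 TPM. Rgcc was at -0.02 ± 0.24 and Aqp1 at -0.04 ± 0.16. Among the receptor genes, S1pr1, the receptor for sphingosine 1-phosphate that steadies the endothelial barrier, was at 0.05 ± 0.13. Ramp2 and Calcrl, which together form an adrenomedullin receptor, were at 0.10 ± 0.09 and -0.07 ± 0.19. Of the arterial genes, Sema3g, a secreted semaphorin, had 15.6 to 23.5 TPM in endostatin libraries and 14.2 to 19.5 TPM in control libraries, at 0.15 ± 0.14. Gja4, a connexin of arterial gap junctions, had 8.34 to 11.5 TPM in endostatin libraries and 8.70 to 11.8 TPM in control libraries, at -0.12 ± 0.14.

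**Figure D3:**
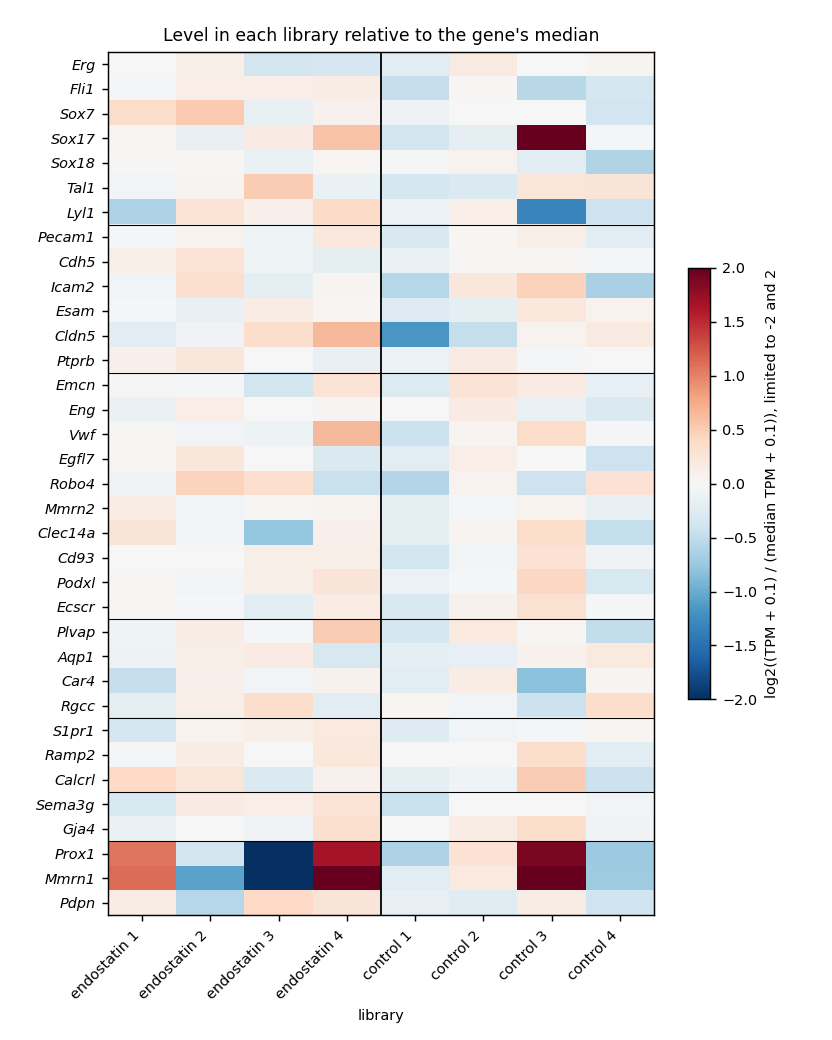
Level of each endothelial gene (rows, by role) in each library (columns, endostatin 1 to 4 left of control 1 to 4) as log2 of TPM over the gene's median, with 0.1 TPM added and colours limited to -2 and 2. Most cells are pale, while Sox17 in control 3 and Prox1 and Mmrn1 in endostatin 3, endostatin 4 and control 3 reach the limits or come near them.

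Of the 3 lymphatic genes, Prox1 and Mmrn1 varied widely among libraries of both groups. Prox1, the factor that sets lymphatic identity, had 1.51, 0.494, 0.00 and 2.33 TPM in endostatin 1 to 4, and 0.402, 0.840, 2.74 and 0.364 TPM in control 1 to 4. Mmrn1, a matrix protein of lymphatic endothelium that is also stored in platelets, had 5.47, 1.11, 0.429 and 12.3 TPM in the endostatin libraries, against 2.09, 2.82, 12.8 and 1.46 TPM in the control libraries. Control 3, endostatin 4 and endostatin 1 were the highest libraries for both genes, so each group held high and low libraries. The count of 0 for Prox1 in endostatin 3 allows up to 0.159 CPM. The log2 fold change was 0.12 ± 1.13 for Prox1 and 0.11 ± 0.98 for Mmrn1, both with an adjusted p of 0.9996 (edgeR). These values turn on single libraries. Without control 3 they were 0.81 for Prox1 and 0.89 for Mmrn1, and without endostatin 4 they were -0.997 and -0.952. Without both of these libraries they were -0.53 for Prox1 and -0.31 for Mmrn1.

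Of 7 other lymphatic genes, 4 had the same 3 highest libraries in TPM, while Lyve1, Foxc2 and Itga9 did not. Lyve1 was highest in endostatin 3, at 83.1 TPM, and Foxc2 in control 4, at 4.55 TPM. Itga9 was highest in control 3, endostatin 4 and endostatin 2 in TPM. Ccl21a, the chemokine that draws dendritic cells and T cells into lymphatics, had 60.5, 9.35, 4.62 and 201 TPM in endostatin 1 to 4, and 22.8, 46.5, 141 and 18.3 TPM in control 1 to 4. Flt4, the lymphatic receptor for vascular endothelial growth factor C, had 6.95, 4.90, 4.94 and 11.7 TPM in the endostatin libraries, against 5.226, 5.122, 12.96 and 5.203 TPM in the control libraries. Reln, a secreted glycoprotein of lymphatic vessels, had 2.71, 0.981, 0.537 and 7.91 TPM in endostatin 1 to 4 and 1.87, 2.58, 6.68 and 1.34 TPM in control 1 to 4. This choice of libraries was made after the values were seen. In TPM they were the highest for 2 of the 3 lymphatic genes and for 4 of 7 other lymphatic genes. Those 4 were Ccl21a, Flt4, Reln and Nts, and Nts was below the count filter. They were also the highest in TPM for 4 of all 35 endothelial genes (Prox1, Mmrn1, Mmrn2 and Clec14a) and for 7.68% of all genes tested. The order of the last 2 genes depended on the scale. In CPM, Mmrn2 was lowest in control 3, at 53.0 CPM. Clec14a had 15.0 CPM in control 2 and 14.0 CPM in endostatin 4. Pdpn, a mucin of lymphatic endothelium that fibroblasts and mesothelium also make, did not share the 3 highest libraries of Prox1 and Mmrn1. It had 30.2, 18.2, 35.9 and 32.4 TPM in endostatin 1 to 4, and 24.2, 23.1, 30.3 and 20.7 TPM in control 1 to 4, and its log2 fold change was 0.20 ± 0.19. The sum of the reproductive tract markers, though not each marker, was highest in the same libraries as Prox1 and Mmrn1. The part of these markers in the spread of lymphatic genes was not tested.

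The promoter windows of Prox1 (GRCm38.p6, chr1:190170778-190171077, minus strand) and Mmrn1 (chr6:60944067-60944366, plus strand) are shown because these genes had the widest spread between libraries in log2 CPM (SD 2.06 and 1.66, n = 8) and the same highest libraries. Capitals mark AGGAA or TTCCT, present once in Prox1 and 5 times in Mmrn1, beside a mean of 1.2 matches over all windows.
Prox1: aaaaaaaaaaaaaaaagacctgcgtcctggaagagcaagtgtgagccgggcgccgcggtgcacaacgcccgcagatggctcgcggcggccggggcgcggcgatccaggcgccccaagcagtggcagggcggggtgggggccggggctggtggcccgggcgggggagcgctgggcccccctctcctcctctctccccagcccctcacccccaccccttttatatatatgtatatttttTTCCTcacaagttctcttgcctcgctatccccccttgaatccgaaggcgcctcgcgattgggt
Mmrn1: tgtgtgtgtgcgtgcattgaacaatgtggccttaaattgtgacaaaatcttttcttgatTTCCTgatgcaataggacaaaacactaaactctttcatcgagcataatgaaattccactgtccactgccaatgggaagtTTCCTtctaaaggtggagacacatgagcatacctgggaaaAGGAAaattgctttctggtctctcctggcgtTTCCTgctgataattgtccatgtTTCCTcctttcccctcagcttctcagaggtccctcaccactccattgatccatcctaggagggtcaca

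**Figure D4:**
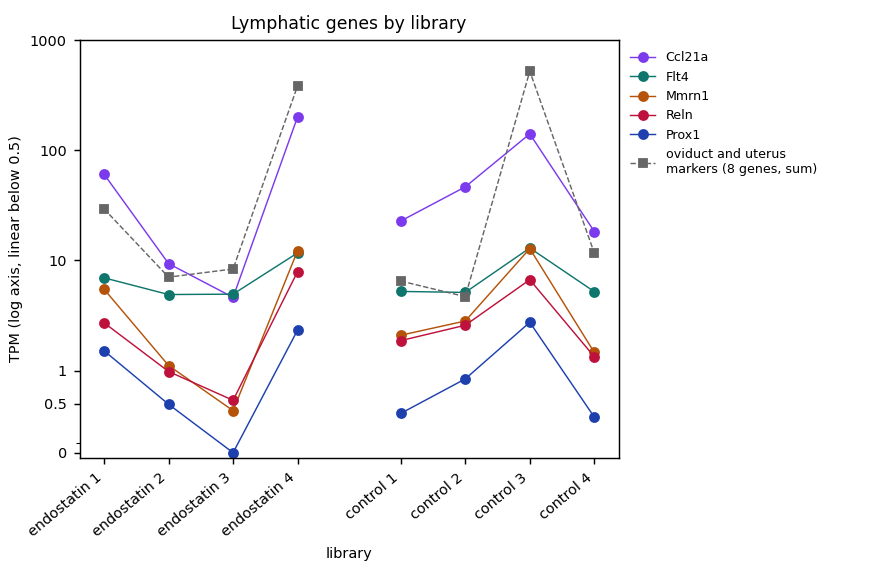
TPM (log axis, linear below 0.5) of 5 lymphatic genes in each library, with endostatin libraries left of control libraries, and the summed TPM of 8 oviduct and uterus markers as a dashed line. Endostatin 4 and control 3 are high for all the genes shown, which share their 3 highest libraries, and Prox1 is at 0 in endostatin 3. Pdpn, Lyve1, Foxc2 and Itga9, which do not share them, are not shown.

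Between the labelled batches, batch 2 minus batch 1, 6 of 16154 genes (0.0371%) passed an adjusted p of 0.05 in edgeR, and 0 of the 35 endothelial genes did. Of the 6, 1 was higher and 5 were lower. At an unadjusted p under 0.05, 1 endothelial gene was higher and 4 were lower, beside 5.66% of all genes higher and 4.4% lower. The higher gene was Cldn5, at 43.3 CPM in batch 2 and 27.3 CPM in batch 1, with a log2 fold change of 0.68 ± 0.16 and an adjusted p of 0.44. DESeq2, which called 1.42% of the genes it adjusted, gave Cldn5 a log2 fold change of 0.68 with an adjusted p of 0.028, so that 1 of the 35 passed. The lower genes were Sox7 at -0.42 ± 0.10, Sox18 at -0.37 ± 0.11, Erg at -0.35 ± 0.13 and Egfl7 at -0.29 ± 0.11. Sox7 had 15.8 CPM in batch 2 and 21.3 CPM in batch 1, and Sox18 had 32.1 CPM in batch 2 and 41.2 CPM in batch 1. For these SOX genes all 4 libraries of batch 2 were below all 4 of batch 1 in CPM, as for 3.21% of all genes, and for Esam all 4 were above, as for 3% of all genes. All 3 lymphatic genes had positive values, with a median of 0.80, but Prox1 at 0.80 ± 1.14 and Mmrn1 at 1.09 ± 0.99 were -1.95 and -1.68 without control 3 and endostatin 4, both of which are in batch 2.

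No endothelial gene passed the test of a difference in the endostatin effect between the batches. In edgeR the interaction passed for 0 of 16154 genes (0%) after adjustment, with a lowest adjusted p of 0.56, while DESeq2 called 26 genes higher and 8 lower, with 0 of the 35 among them. At an unadjusted p under 0.05, 3.31% of all genes and 1 endothelial gene passed. That gene was Sox18, with an endostatin effect of 0.39 ± 0.11 in batch 2 and -0.08 ± 0.11 in batch 1, an interaction of 0.47 ± 0.16 on the log2 scale and an adjusted p of 0.9999. Of the 35 genes, 22 had a positive endostatin effect in batch 2 and 22 in batch 1. The largest spread between the batches was that of Sox17, at -1.54 ± 0.72 in batch 2 and 0.15 ± 0.71 in batch 1.

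**Figure D5:**
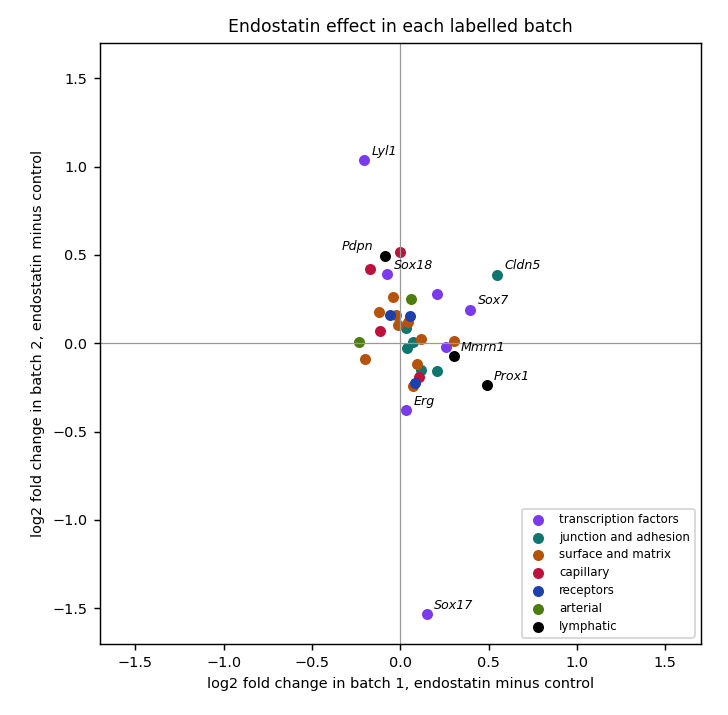
Log2 fold change, endostatin minus control, of each endothelial gene in batch 2 (vertical axis) and in batch 1 (horizontal axis), each from 2 endostatin and 2 control libraries, coloured by role. Cldn5 and Sox7 are positive in both batches, while Sox17 at -1.54 and Lyl1 at 1.04 are far from 0 in batch 2.

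Further endothelial genes, drawn from 5 lists of genes outside the 35, gave the same count of 0 passing. Of 21 other pan-endothelial genes, 13 had positive and 8 negative log2 fold changes, with a median of 0.04. Thbd, the thrombomodulin of the anticoagulant endothelial surface, had 149, 127, 241 and 180 TPM in endostatin 1 to 4 and 117, 115, 148 and 146 TPM in control 1 to 4, at 0.34 ± 0.15. In TPM only endostatin 2 lay within the range of the control libraries for Thbd. In CPM endostatin 1 did so too, at 309 against 253 to 320 CPM in the control libraries. Heg1, a receptor that stabilises junctions, was at 0.34 ± 0.16, with 193 ± 33.8 TPM in endostatin libraries and 148 ± 13.9 TPM in control libraries. Kdr, the main receptor for vascular endothelial growth factor A, was at -0.11 ± 0.11, with 49.8 ± 6.65 TPM in endostatin libraries and 51.4 ± 3.41 TPM in control libraries. Gata2 was at -0.99 ± 0.68.

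Of 6 other capillary genes, 4 were positive and 2 negative. Aplnr, the apelin receptor, had 9.99, 8.99, 3.72 and 4.27 TPM in endostatin 1 to 4 and 8.24, 8.96, 13.7 and 6.85 TPM in control 1 to 4. Its log2 fold change was -0.62 ± 0.27 with an unadjusted p of 0.055, and was -1.25 in batch 2 and -0.01 in batch 1. Gpihbp1, which carries lipoprotein lipase across capillary endothelium, was at 0.05 ± 0.19, Btnl9 at 0.11 ± 0.17 and Esm1, a secreted proteoglycan of sprouting endothelium, at -0.31 ± 0.66. Of 7 other arterial genes, 2 were positive and 5 negative, with Gja5, a connexin, at 0.25 ± 0.18, the kinase gene Bmx at 0.05 ± 0.46, Efnb2, the arterial ephrin ligand, at -0.34 ± 0.47 and Hey1, a Notch target, at -0.12 ± 0.20. Of 5 venous genes tested, 4 were positive and 1 negative, with Lrg1, a secreted glycoprotein, at 0.57 ± 0.29, Selp, the P-selectin of activated endothelium and platelets, at 0.32 ± 0.22 and Nr2f2, the factor of venous identity, at -0.20 ± 0.27. Of 6 other lymphatic genes tested, 3 were positive and 3 negative, with the hyaluronan receptor Lyve1, which macrophages also carry, at 0.24 ± 0.15, the integrin Itga9 at 0.11 ± 0.19, the valve factor Foxc2 at -0.05 ± 0.26 and Reln at -0.02 ± 0.72. All of these had an adjusted p of 0.9996 (edgeR). Several of these values changed sign when 1 library was left out, and none passed the test then. Without control 3, the values turned to 0.32 for Efnb2, 0.10 for Nr2f2, 0.09 for Gata2, 0.46 for Reln, -0.02 for Btnl9 and -0.13 for Gpihbp1. Without endostatin 4, they turned to -0.43 for Bmx and 0.03 for Foxc2, and that of Reln was -0.94.

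The libraries differed in how many of the 35 genes reached their extreme there. Control 3 was the highest library in TPM for 12 of the 35 genes and endostatin 4 for 9, while control 1 was the lowest for 11 and control 4 for 9. These counts hold for TPM, and the shares over all genes were not counted. In CPM, Sox17, Podxl and Calcrl were still highest in control 3, but other genes were not. Esam had 67.1 CPM in control 3 and 76.2 in endostatin 3, and Ramp2 had 36.2 in control 3 and 41.7 in endostatin 4. Adipocyte marker genes, 12 in all and above 0 in every library, summed to 47630 to 52830 TPM in endostatin libraries, and to 31570 TPM in control 3 and 51430 ± 13650 TPM over the 4 control libraries (SD). Mural cell markers, 12 genes of pericytes and smooth muscle and all above 0, summed to 1038 to 2535 TPM in endostatin libraries and 944 to 1687 TPM in control libraries, highest in endostatin 4. Tagln led that sum, at 1243 TPM in endostatin 4. Not all of the 12 genes followed it. Pdgfrb and Higd1b were also highest in endostatin 4, at 21.7 and 11.6 TPM, while Rgs5 and Cspg4 were lowest there, at 48.0 and 10.2 TPM. Markers of cells that share genes with the endothelial lists also differed among libraries. Fibroblast markers, 10 genes and all above 0, summed to 2673 to 4661 TPM in endostatin libraries and 2249 to 3374 TPM in control libraries, and 10 of 10 were positive on the log2 scale. Their median was 0.25 with all libraries, 0.53 in batch 2 and -0.01 in batch 1. Mesothelial markers, 10 genes and all above 0, summed to 310 to 677 TPM in endostatin libraries and 286 to 806 TPM in control libraries, with 8 of 10 positive and medians of 0.60 in batch 2 and -0.12 in batch 1. Pdpn, which both of these cell types make, was at 0.50 in batch 2 and -0.09 in batch 1. Macrophage markers, 10 genes and all above 0, summed to 1063 to 1872 TPM in endostatin libraries and 856 to 1259 TPM in control libraries, with 9 of 10 positive and medians of 0.76 in batch 2 and -0.08 in batch 1. Lyve1, which macrophages carry, was at 0.34 in batch 2 and 0.14 in batch 1. Platelet markers, 6 genes of which 4 were above 0 in every library, summed to 100.5 to 152 TPM in endostatin libraries and 70.2 to 119 TPM in control libraries, with 3 of 3 tested positive and a median of 0.57, beside 0.64 in batch 2 and 0.01 in batch 1 for Selp. Other genes shared with platelets did not follow: Esam was at 0.01 in batch 2 and 0.07 in batch 1, and Mmrn1 at -0.07 and 0.30. Erythroid markers, 5 of 6 tested, had medians of 0.60 in batch 2 and -0.44 in batch 1. Aqp1, also found in red cells, was at -0.19 in batch 2 and 0.11 in batch 1. The part of any of these cell types in the endothelial values was not tested.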

How the data were processed

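Each deposited file lists 115620 transcripts of 1 library. Per the submitters' processing notes, the authors quantified reads with Salmon and the build was GRCm39; no version, index or option is stated there. The deposited files give an estimated count per transcript and TPM, which the authors' Salmon run scaled to 1000000 per library. Transcript identifiers were matched without version to GENCODE M21 (GRCm38) for names and types, and 113710 (98.35%) matched. Sums of the deposited estimated counts over each gene were rounded, and the deposited TPM were summed per gene for levels. Salmon divides reads among similar transcripts, so overlapping genes and near-identical copies are uncertain.

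Low counts were removed with filterByExpr on the 4 batch by treatment groups. Counts of all genes were scaled by TMM and fitted with edgeR 4.0.16 (R 4.3.3, limma 3.58.1), with batch and treatment terms or their interaction. Tests were two-sided, adjusted by Benjamini-Hochberg over 16154 genes, with a threshold of 0.05 and 95% intervals. CPM were scaled by TMM. On simulated data of the same design, with 200 changed genes, the fit recovered 0%, 38.5% and 76% of changes of 1.5-, 2- and 4-fold. Other settings included DESeq2 1.42.0. No column belonged to other samples.

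The 35 genes, the other lists and the settings were chosen with earlier results of these data known. All 35 are named; of each other list, up to 2 genes per direction with the smallest p are named. Promoter windows are from RefSeq (GRCm38.p6), and no coordinates of the submitters' build are given. Figures were drawn with matplotlib 3.10.9.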

Additional observations from a re-analysis of the deposited data

Results flagged for a closer look

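In 6 of 70 groups of 4 libraries (35 genes in each treatment group), 1 library's TPM stood apart from the other 3, with a gap to the nearest over the range above Dixon's 95% critical value for 4 samples; chance marks about 1 group in 20. Fli1 was at 31.53 TPM in endostatin 1, below 34.96 to 35.22 in the other endostatin libraries. Sox18 was at 42.73 TPM in endostatin 3, below 47.68 to 48.24. Vwf was at 53.32 TPM in endostatin 4, above 31.49 to 34.50. Sox17 was at 253 TPM in control 3, above 25.91 to 32.78 in the other control libraries, and Mmrn1 was at 12.79 TPM in control 3, above 1.46 to 2.82. Sema3g was at 14.21 TPM in control 1, below 18.68 to 19.51.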

How the results depend on the processing

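Under all 24 alternatives for endostatin against control, 0 endothelial genes passed; 753 of 840 values kept their sign, 87 changed it, and 13 genes kept theirs throughout, with a median of the 35 between 0.01 and 0.11. The replicate numbers did not pair the samples (correlations of deviations 0.14, 0.20, -0.19 and -0.32), and a fit with a replicate block gave 0 calls and a median of 0.05. DESeq2 called 5 genes higher (Trpc2, Mup17, Amd1, Gm7694 and a transcript with no gene name) and 2 lower (Gm28438 and another such transcript) with endostatin, 109 higher and 98 lower in batch 2 with 1 endothelial gene (Cldn5), and 26 higher and 8 lower for the interaction. For batch 2 against batch 1 the other counts were 0 higher and 1 lower by library size alone, 4 higher with no low-count filter, 3 higher and 8 lower with sample quality weights, 0 and 3 for protein-coding genes, 0 and 2 for protein-coding transcripts (chosen after seeing the data), 9 and 25 without control 3 and endostatin 4, and 0 and 0 without control 1 and control 4. Leaving out each library in turn gave 0 to 1 higher and 0 to 9 lower. Scaling by library size alone changed the sign of the batch median of the 35, to 0.061 against -0.056 with TMM, and moved that of all genes to 0.13, against 0.01 with TMM; its cause was not tested. Over 22 batch settings 723 of 770 values kept their sign and 47 did not. The interaction was not run for the 2 settings without a pair of libraries. Prox1 had 0 counts in endostatin 3, which held 18849295 counts in all, and 34 counts in control 1, which held 18627408. The cause of this difference was not tested.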

Other observations

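Values chosen after they were seen follow. Eng had 7.47% ± 1.12 of its TPM in retained-intron transcripts in endostatin libraries and 5.201% ± 0.904 in control libraries (SD, n = 4 each); this was not tested. Hepatocyte markers, 9 genes of which 4 were above 0 in every library, summed to 328.5, 502, 20 and 972 TPM in endostatin 1 to 4, and to 135, 94.1, 12.3 and 20.2 TPM in control 1 to 4. The transcription factor genes of the endothelial list summed to 158 ± 8.94 TPM in endostatin libraries and 189 ± 108 TPM in control libraries, with 253 TPM of Sox17 in control 3. The junction and adhesion genes summed to 405 ± 13.5 TPM in endostatin libraries and 372 ± 42.8 TPM in control libraries, with control 1 the lowest at 313 TPM.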
